A study of Homo sapiens with 22 samples.

Results

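New E2F3 sites with initiating polymerase were mapped in the human prostate cancer line 22Rv1 by chromatin immunoprecipitation followed by sequencing (ChIP-seq). They are the peaks of the E2F3 list of cells overexpressing the linker histone H1-10 (H1-10 OE) that overlapped no E2F3 peak of control cells (Ctrl) and that overlapped a peak of RNA polymerase II phosphorylated on serine 5 (Pol2S5p) in H1-10 OE, each by 1 bp; a peak is 1 row of a deposited list. These conditions were met by 800 of the 4296 E2F3 peaks of H1-10 OE, and by 473 where both peaks needed a -log10 q of at least 5. The sites were thus chosen by their peaks in the E2F3 lists of H1-10 OE and Ctrl and in the Pol2S5p list of H1-10 OE, and values from those 3 lists are given as a description.

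E2F3 is a transcription factor that, with a dimerisation partner, binds promoters of genes needed for entry into S phase, and it is held in check by the retinoblastoma protein. Pol2S5p is the form of the polymerase that has begun transcription, and it is found at promoters and at active enhancers. Linker histones such as H1-10 bind the nucleosome where DNA enters and leaves it and take part in compacting chromatin.

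Lists of 8 of the 22 samples were used, and each group was 1 library. They are E2F3, Pol2S5p and H3K27me3, a mark of Polycomb-silenced chromatin, each in H1-10 OE and in Ctrl, and Pol2S5p with an siRNA against E2F3 (siE2F3) or a control siRNA (siCtrl). Peak names of siE2F3 and siCtrl carry H1FXOE, and H1FX is an older name of H1-10, so both appear to come from H1-10 overexpressing cells, although their sample labels do not say so; peak names of the E2F3 Ctrl list carry EV. How H1-10 was overexpressed, whether the line was 1 clone, and how far the siRNA lowered E2F3 are not stated in the labels. With 1 library per group, differences could not be set against replicate spread, and tests were not run. Intervals are 95% Wilson intervals for shares and Newcombe intervals for differences, in percentage points, and both cover counting error only. Peaks are not replicates of a condition, read depth is unknown, and the number of peaks differed between lists, with 4296 in H1-10 OE and 22988 in Ctrl for E2F3, 40626 in H1-10 OE and 35493 in Ctrl for Pol2S5p, and 83067 in siE2F3 and 83650 in siCtrl. Fold enrichments and -log10 q values are the authors', per peak, and a fold is read only within its own list. Positions are 1-based on hg19. An annotation or genome of hg19 was not used here, so sites are given by position, without exon, intron or promoter, no sequence is printed, and the labelled cell type was not checked against marker genes.

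Of the 4296 E2F3 peaks of H1-10 OE, 3691 (85.9%) were new, and 1298 (30.2%) overlapped Pol2S5p of H1-10 OE. The 800 sites that met both conditions are set beside 2891 new E2F3 peaks without Pol2S5p and beside 498 E2F3 peaks that were also in Ctrl and overlapped Pol2S5p of H1-10 OE. The remaining 107 were in Ctrl and lacked Pol2S5p. The new sites with Pol2S5p had a median E2F3 fold of 8.23 (quartiles 5.87 and 12.7, range 2.05 to 77.8) and a median width of 517 bp. New sites without Pol2S5p had a median fold of 5.70 and a width of 359 bp, and sites also in Ctrl had 4.77 and 380 bp. When the 3691 new peaks were split into 10 classes of E2F3 significance, Pol2S5p of H1-10 OE was met by 6.50% in the weakest class and by 65.1% in the strongest.

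The strongest new sites lay on chromosomes 7, 8, 2 and 4. The leading one, at 80505694 to 80507077 of chromosome 7, had an E2F3 fold of 77.8 in a peak of 1384 bp. Its Pol2S5p peak in H1-10 OE had a fold of 14.4, and the summits of the pair were 3 bp apart. This site had Pol2S5p with a fold of 5.03 in siE2F3 and of 6.17 in siCtrl, and no peak in Ctrl. A second peak nearby, at 80512310 to 80513538, had a fold of 40.5 for E2F3 and 5.20 for Pol2S5p, and there none of the other Pol2S5p lists had a peak. Both are close neighbours with strong E2F3, and they differed in the siRNA lists. By general knowledge of the genome, and with no hg19 annotation to check it, they lie in SEMA3C, a secreted semaphorin that guides axons; the RefSeq table used here places that gene on chromosome 7, and its coordinates, which are for another build, were not used.

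On chromosome 8 the site at 37159659 to 37160847 had an E2F3 fold of 65.2 and a Pol2S5p fold of 11.6 in H1-10 OE, with summits 45 bp apart, and Pol2S5p folds of 3.26 in siE2F3 and 5.65 in siCtrl. On chromosome 2 the site at 210360363 to 210361575 had 58.9 for E2F3 and 6.89 for Pol2S5p. It had a Pol2S5p peak in siCtrl, with a fold of 3.89, and none in siE2F3 or Ctrl. This site lies, again by general knowledge and not by an annotation, in MAP2, which encodes a microtubule-associated protein of neurons and is on chromosome 2 in the RefSeq table.

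Among the 10 sites with the highest E2F3 significance, 2 had Pol2S5p in siE2F3, 9 had it in siCtrl and none in Ctrl. Over all 800 new sites the counts were 144 (18%), 253 (31.6%) and 49 (6.12%), and 120 were in siCtrl and not in siE2F3. Of the 10, 7 were in siCtrl and not in siE2F3, among them the site on chromosome 2. A pair lay on chromosome 4, at 112804476 to 112805354 with an E2F3 fold of 50.0 and at 19825037 to 19826191 with 48.8. A further pair lay on chromosome 7 at 114293081 to 114294438 and at 114169976 to 114170832, with folds of 43.6 and 43.1. The remaining pair was on chromosome 8 at 37249362 to 37251131 with 44.5 and on chromosome 13 at 67409050 to 67410034 with 23.4. The site at 27510781 to 27511995 of chromosome 5, with a fold of 49.4 for E2F3 and 7.83 for Pol2S5p, had no peak in any of the other Pol2S5p lists.

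The sites with the strongest Pol2S5p were of another kind. At 56756306 to 56757147 of chromosome 17 the Pol2S5p peak of H1-10 OE had a fold of 70.5 and the E2F3 peak one of 16.3. Pol2S5p was present there in all the other lists, with folds of 57.5 in siE2F3, 37.8 in siCtrl and 25.9 in Ctrl. The next 4 by Pol2S5p significance, on chromosome 6 at 133141954 to 133142315 and on chromosome 1 at 173829830 to 173830142, 76256928 to 76257192 and 76257700 to 76257964, had E2F3 folds of 4.80, 5.41, 4.37 and 3.86. Their Pol2S5p peaks were 8321 to 10099 bp wide, and the E2F3 summits lay 4977 to 7098 bp from the summit of the overlapping Pol2S5p peak. For the site at 173829830 another Pol2S5p summit was nearer, at 2158 bp, and for the one at 76257700 at 4767 bp. These 4 thus pair a weak E2F3 peak with a wide polymerase peak whose summit lies far off, and the last pair shares 1 Pol2S5p peak.

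E2F3 and Pol2S5p summits of H1-10 OE were close at most new sites. The median distance was 74 bp (95% interval of the median 67 to 80, quartiles 32.8 and 142), and the longest was 7715 bp. Summits lay within 50 bp of each other at 305 sites (38.1%), within 200 bp at 676 (84.5%) and within 1000 bp at 783 (97.9%). At sites also in Ctrl the median was 163 bp (146 to 183), and 57.8% lay within 200 bp. The Pol2S5p peaks were also narrower, with a median of 474 bp at new sites and 1620 bp at sites also in Ctrl, and a narrow peak leaves less room for a long distance. The E2F3 summit was inside a Pol2S5p peak at 740 of the 800 sites (92.5%), and at 287 (35.9%) the whole Pol2S5p peak lay inside the E2F3 peak. At 4 sites the summits fell on the same base.

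**Figure D1:**
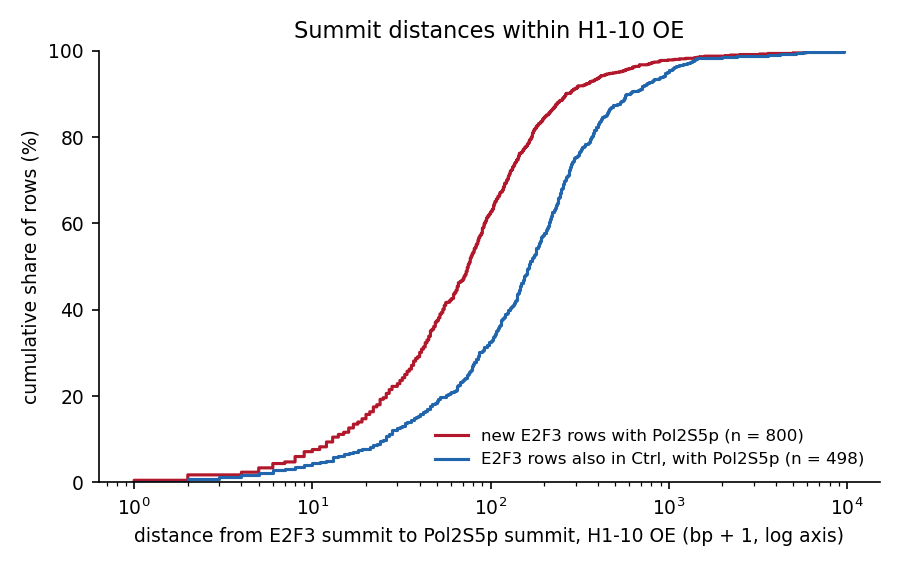
Cumulative share of E2F3 peaks of H1-10 OE by the distance from the E2F3 summit to the summit of the Pol2S5p peak with the longest overlap (bp + 1, log axis). The median is 74 bp for the 800 new sites with Pol2S5p and 163 bp for the 498 sites also in Ctrl.

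In the other lists the distance is given beside that of H1-10 OE over the same sites. At the 144 new sites with Pol2S5p in siE2F3 the median was 199 bp (172 to 262) in siE2F3, and at these sites it was 86.5 bp (72 to 122) in H1-10 OE. The 253 sites with Pol2S5p in siCtrl had 94 bp (81 to 117) in siCtrl and 80 bp (67 to 90) in H1-10 OE, with overlapping intervals. The 49 sites with Pol2S5p in Ctrl had 581 bp (217 to 1391) in Ctrl and 359 bp (151 to 776) in H1-10 OE, also with overlapping intervals. For sites also in Ctrl the medians were 184 bp in siE2F3, 194 bp in siCtrl and 166 bp in Ctrl.

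Most new sites had Pol2S5p in the H1-10 OE list and in no other Pol2S5p list. The siRNA lists also appear to come from H1-10 overexpressing cells, so such a site is not shown to be particular to overexpression. In siE2F3 Pol2S5p was found at 144 of the 800 sites (18%, 15.5 to 20.8%), in siCtrl at 253 (31.6%, 28.5 to 34.9%) and in Ctrl at 49 (6.12%, 4.66 to 8.01%). Over all Pol2S5p peaks of H1-10 OE, 88.6% were in siCtrl. With a -log10 q of at least 5 the share in Ctrl was 2.33%, and with the strongest 35493 peaks of each list, a setting chosen after the data were seen, the share in siCtrl was 20.6%. Over all 4296 E2F3 peaks of H1-10 OE these lists were met by 643 (15.0%), 784 (18.2%) and 558 peaks. Sites also in Ctrl had Pol2S5p in 91.6% for siE2F3, 94.8% for siCtrl and 92.4% for Ctrl. The differences, new sites minus sites also in Ctrl, were -73.6 points (-76.9 to -69.6), -63.2 (-66.7 to -59.1) and -86.2 (-88.7 to -83.0). The sets were chosen by E2F3 in Ctrl, so a contrast with the Ctrl list is tied to that choice. Their Pol2S5p peaks of H1-10 OE also differed in strength, with a median fold of 6.20 at new sites and 18.4 at sites also in Ctrl. In 5 equal classes of Pol2S5p -log10 p, 89.1% and 99.2% of their peaks were in siCtrl in the strongest class. In the class below it the shares were 40% and 89.7%. New sites without Pol2S5p in H1-10 OE had it in 1.11%, 1.59% and 0.865%, and the new sites with it exceeded them by 16.9 (14.3 to 19.7), 30.0 (26.9 to 33.4) and 5.26 points (3.74 to 7.16). The overlap of E2F3 with the H1-10 OE and Ctrl lists of Pol2S5p crosses a folder label in the authors' peak names, while that with siE2F3 and siCtrl does not. What that label stands for is not stated, and its part in these shares was not tested.

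By pattern, 532 sites (66.5%, 63.2 to 69.7%) had a peak in none of the other Pol2S5p lists. Over all 40626 Pol2S5p peaks of H1-10 OE, 3354 overlapped none of them. Of the new sites, 117 (14.6%) were in siCtrl alone, 91 (11.4%) in siE2F3 and siCtrl, and 42 (5.25%) in all the lists. In siE2F3 alone were 11 sites, in Ctrl alone 4, and in siCtrl and Ctrl 3. The median E2F3 fold was highest among the 7 patterns at the 117 sites of siCtrl alone, at 11.4, and lowest at the 42 sites of all the lists, at 5.07. The Pol2S5p fold of H1-10 OE was highest at those 42 sites, with a median of 14.6, against 7.87 at the 117 and 5.52 at the 532. Over the 800 sites the E2F3 and Pol2S5p folds of H1-10 OE had a Spearman correlation of 0.161, as a description.

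**Figure D2:**
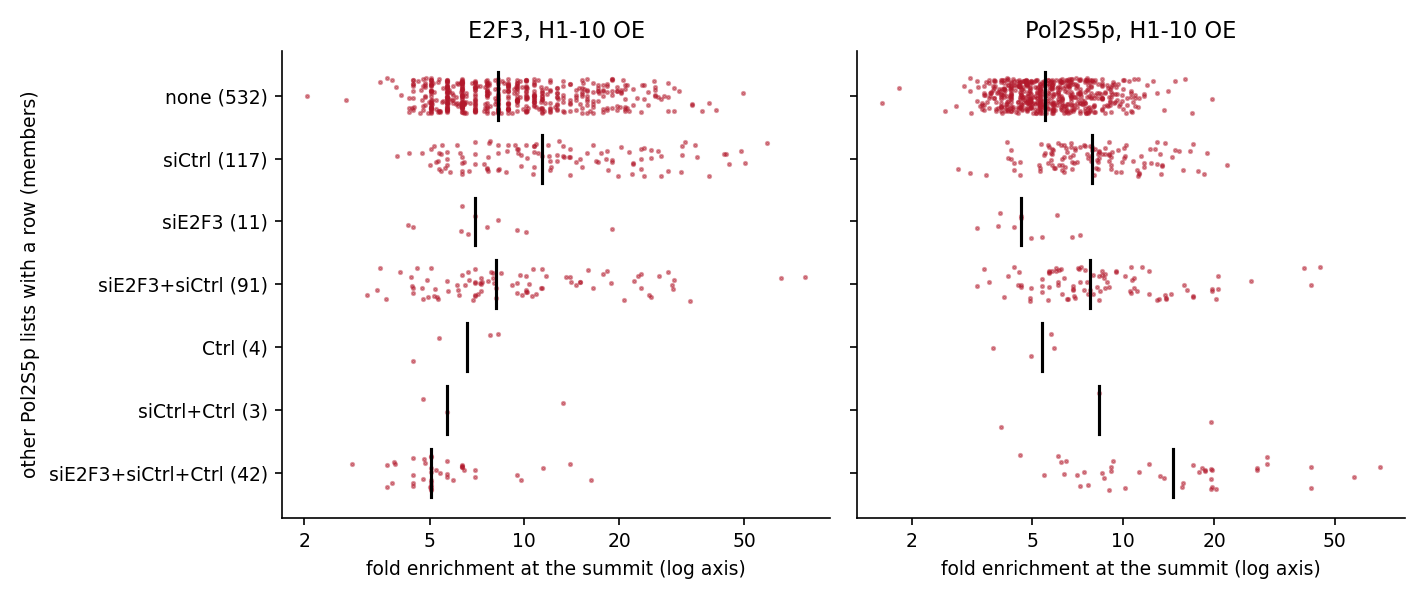
Fold enrichment of E2F3 (left) and of Pol2S5p (right) in H1-10 OE at each of the 800 new sites (log axes), by the other Pol2S5p lists in which the site has a peak; black lines are medians and numbers in brackets count sites. The 42 sites present in all the lists have the lowest median for E2F3, 5.07, and the highest for Pol2S5p, 14.6.

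The leading sites by E2F3 significance show what each pattern holds. In siE2F3 and siCtrl the third after those named on chromosomes 7 and 8 was at 121106595 to 121107739 of chromosome 11, with an E2F3 fold of 29.4 and Pol2S5p folds of 7.90 in siE2F3 and 5.81 in siCtrl. In siE2F3 alone the first was at 15892311 to 15893029 of chromosome 10, with an E2F3 fold of 19.0 and a Pol2S5p fold of 3.19 in siE2F3. In all the lists, after the site on chromosome 17, came 111332871 to 111333854 of chromosome 4 with an E2F3 fold of 11.4 and 124082330 to 124083428 of chromosome 5 with 9.78. With no other list, after the sites on chromosomes 5 and 7, came 80102422 to 80104044 of chromosome 13, with 38.6 for E2F3 and 5.32 for Pol2S5p. In siCtrl and Ctrl the first was at 13959656 to 13960386 of chromosome 7, with 13.3, and in Ctrl alone at 77795069 to 77795622 of chromosome 10, with 7.75.

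The absence from the other lists was larger than for Pol2S5p peaks of the same class of -log10 p. Width was not matched, and a wide peak has more room for an overlap of 1 bp. Pol2S5p peaks of H1-10 OE had a median width of 474 bp at the new sites and 641 bp over the whole list. The part of width in these shares was not tested. The 800 sites overlapped 794 Pol2S5p peaks of H1-10 OE, 9 of which were the peak of longest overlap for 2 to 4 sites. Over all 40626 Pol2S5p peaks of H1-10 OE, 85.1% overlapped siE2F3, 88.6% siCtrl and 57.2% Ctrl, while of the 794 peaks 17.8%, 31.6% and 5.79% did. The median fold was 6.20 at the new sites and 5.51 over the whole list, while the upper quartile was lower at the new sites, 8.30 against 10.6. In 5 equal classes of -log10 p over the whole list, peaks with a new site were less often present than peaks without an E2F3 peak of either E2F3 list in every class and each of the other lists. In the class below the strongest, of -log10 p 10.9 to 30.0, 20% (16.0 to 24.8%) of 315 peaks with a new site were in siE2F3, against 94.9% (94.1 to 95.6%) of 3524 without E2F3. For siCtrl the shares were 40% (34.7 to 45.5%) and 96.7% (96.1 to 97.3%), a difference of -56.7 points (-62.0 to -51.2), and for Ctrl 5.71% (3.64 to 8.85%) and 64.8% (63.2 to 66.3%). The strongest class was broad, of -log10 p 30.0 to 1232. In it 57 of 64 peaks with a new site (89.1%) were in siCtrl, against 99.4% of 505, a difference of -10.3 points (-20.3 to -4.69). Among the few weak Pol2S5p peaks with a site also in Ctrl the shares were low as well, with 45.5% (21.3 to 72.0%) of 11 in siCtrl in class 2 and 63.2% (41.0 to 80.9%) of 19 in class 3, against 82.6% and 90.3% of peaks without E2F3.

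**Figure D3:**
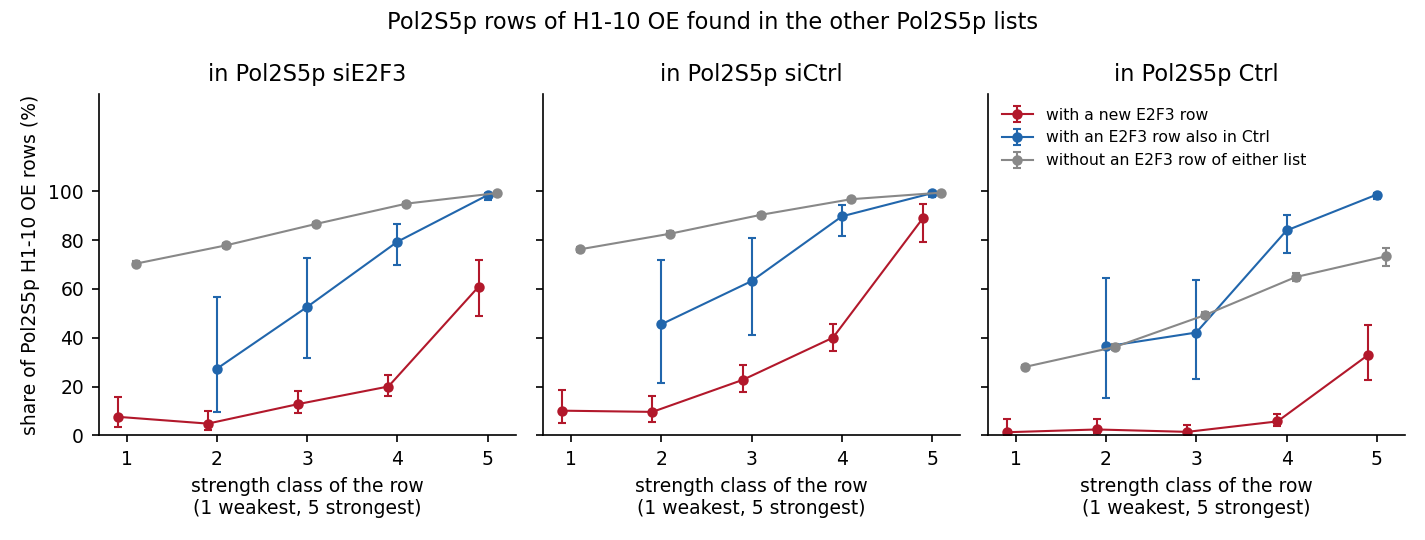
Share of Pol2S5p peaks of H1-10 OE that overlap a peak of siE2F3, siCtrl or Ctrl, by class of strength of the peak; bars are 95% Wilson intervals, and points of fewer than 10 peaks are left out for sites also in Ctrl. Peaks with a new E2F3 site lie below peaks without an E2F3 peak in every class, for example 40% against 96.7% for siCtrl in class 4.

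The same comparison was made with 20 classes, weighted as the peaks with a new site. At the rates of peaks without an E2F3 peak of either list, 88.2% would be in siE2F3, 91.2% in siCtrl and 53.8% in Ctrl, against the observed 17.8% (15.3 to 20.6%), 31.6% (28.5 to 34.9%) and 5.79% (4.37 to 7.64%). Conversely, 3354 Pol2S5p peaks of H1-10 OE were in none of the other Pol2S5p lists, and 531 of them held a new E2F3 site, while 794 of all 40626 peaks did (1.95%). In the class of -log10 p 10.9 to 30.0, 185 of the 292 such peaks did (63.4%, 57.7 to 68.7%), against 3.88% of all peaks of that class. In the weakest class it was 69 of 1402 (4.92%, 3.91 to 6.18%), against 0.972% of all its peaks. Of the 100 most significant such peaks, 69 held a new site and 9 overlapped an E2F3 peak of Ctrl. Both libraries come from H1-10 OE cells, and what they share beyond these peaks was not tested.

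Where a new site had Pol2S5p in siCtrl, it was often missing in siE2F3. Of the 253 such sites, 120 had no siE2F3 peak (47.4%, 41.4 to 53.6%). Over all siCtrl peaks 30.6% had no overlap in siE2F3. In the other direction 11 of the 144 new sites with Pol2S5p in siE2F3 (7.64%, 4.32 to 13.2%) had none in siCtrl, and over all siE2F3 peaks 22.9% had none. Of the sites also in Ctrl with Pol2S5p in siCtrl, 18 of 472 (3.81%, 2.43 to 5.95%) had none in siE2F3. Of the new sites without Pol2S5p in H1-10 OE, 46 had it in siCtrl, and 28 of these (60.9%, 46.5 to 73.6%) had none in siE2F3, so both kinds of new sites had overlapping intervals.

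Absent sites were weaker in siCtrl, with a median siCtrl fold of 4.26, against 6.51 for those kept, so siCtrl peaks were compared in 3 equal classes of strength. In the middle class 65 of 90 peaks with a new site (72.2%, 62.2 to 80.4%) were absent from siE2F3, against 31.6% of 26860 without an E2F3 peak of either list, a difference of 40.7 points (30.6 to 48.9). The weakest class had 76.5% of 34 and 57.7% of 27332, a difference of 18.8 points (2.33 to 29.9). In the strongest class, 24 of 118 (20.3%, 14.1 to 28.5%) were absent, against 3.22% (2.95 to 3.52%) of 14760, a difference of 17.1 points (10.8 to 25.3). Against sites also in Ctrl the difference was 19.2 points (12.7 to 27.4) in the strongest class, 16.7 (-5.60 to 40.0) in the middle one, which holds 18 of them, and 1.47 (-24.8 to 47.8) in the weakest, which holds 4. With 20 classes, 19.5% of the 242 siCtrl peaks with a new site would be absent at the rate of peaks without E2F3, and 47.5% (41.3 to 53.8%) were. For the 455 peaks with a site also in Ctrl, 3.96% (2.52 to 6.17%) were absent, and 1.71% would be at the rate of peaks without E2F3. In the strongest of the 3 classes, which holds 433 of them, the order was reversed, with 1.15% (0.494 to 2.67%) absent against 3.22%. In the middle and weakest classes 55.6% of 18 and 75% of 4 were absent, against 31.6% and 57.7%. Whether sites also in Ctrl share an excess over peaks without E2F3 thus depends on the classes used.

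**Figure D4:**
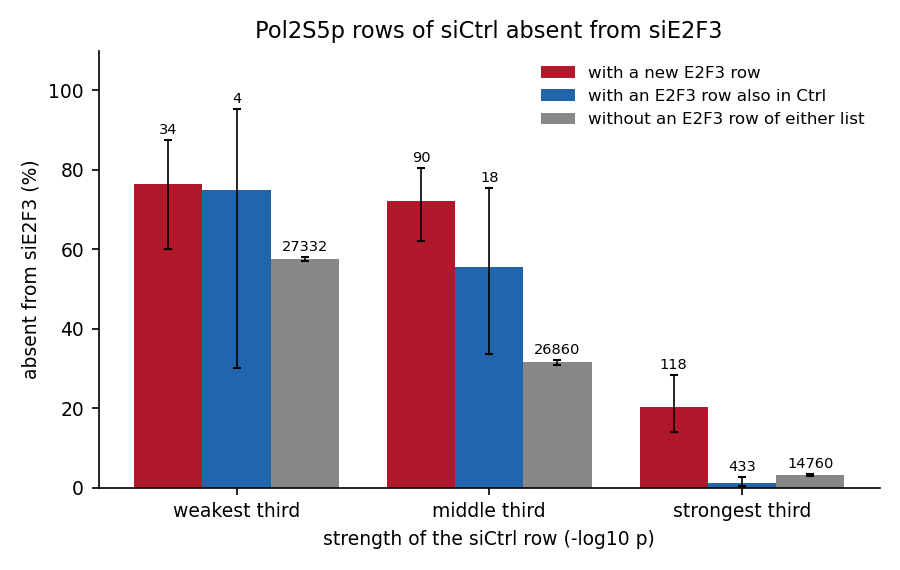
Share of Pol2S5p peaks of siCtrl with no overlapping peak in siE2F3, in 3 equal classes of siCtrl strength; bars are shares, whiskers 95% Wilson intervals and numbers the peaks per bar. Peaks with a new E2F3 site are highest in each class, with 72.2% absent in the middle class against 31.6% of peaks without an E2F3 peak of either list, while the whiskers of the sites also in Ctrl overlap theirs in the weakest and middle classes.

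Absence under siE2F3 was also counted by the strength of E2F3 in H1-10 OE. In 4 equal classes of E2F3 significance, from the weakest to the strongest, 34.4% of 61 sites, 39.5% of 43, 47.6% of 63 and 60.5% of 86 (49.9 to 70.1%) with Pol2S5p in siCtrl had none in siE2F3. Neighbouring classes had overlapping intervals, and the interval of the weakest class was 23.7 to 47.0%. Strength in siCtrl moved with these classes, with median siCtrl folds of 6.87 (5.24 to 12.5), 5.19 (4.18 to 5.92), 5.09 (4.49 to 5.59) and 4.75 (4.21 to 5.00) in the same order, and its part in the shares was not tested. The median E2F3 fold was 11.2 at the 120 sites absent from siE2F3 and 6.97 at the 133 kept. Presence in Ctrl ran the other way, with 16.5% (12.0 to 22.3%) of the 200 sites of weakest E2F3 and 2% (0.780 to 5.03%) of the 200 strongest.

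New sites lay on 24 chromosomes, chromosome M included. Chromosome 5 held most, with 78 (9.75%, 7.88 to 12.0%). Chromosome 4 followed with 69 (8.62%), chromosome 6 with 68 (8.50%), chromosome 1 with 64 (8%) and chromosome 7 with 63 (7.88%). Of the new sites without Pol2S5p, these chromosomes held 6.81%, 9.72%, 8.20%, 8.06% and 6.36% in the same order. Chromosome 19, which is dense in genes, held 1 site (0.125%), although it held 3574 of the Pol2S5p peaks of H1-10 OE (8.80%). It also held 26 of the 498 sites also in Ctrl (5.22%), a difference of -5.10 points (-7.42 to -3.36). New E2F3 peaks without Pol2S5p were as rare there, with 2 of 2891 (0.0692%). The new sites differed from these by 0.0558 points (-0.154 to 0.638), so the low count was shared by both kinds of new E2F3 peaks. Chromosomes 16, 17, 20 and 22 held 6, 19, 7 and 3 new sites, and few new E2F3 peaks of any kind. Their new sites were 20.7% of 29, 47.5% of 40, 53.8% of 13 and 75% of 4 new E2F3 peaks. Over all chromosomes 800 of 3691 new E2F3 peaks were at Pol2S5p. Of the Pol2S5p peaks of a chromosome, 5.38% held a new site on chromosome 4 and 5.31% on chromosome 13, against 0.289% on chromosome 16 and 0.0280% on chromosome 19.

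Chromosome 13 held a smaller share of the new sites with Pol2S5p than of those without. It held 38 with Pol2S5p (4.75%, 3.48 to 6.45%) and 493 without (17.1%, 15.7 to 18.5%), a difference of -12.3 points (-14.2 to -10.1). Thus 7.16% of the 531 new E2F3 peaks of chromosome 13 were at Pol2S5p, against 28.4% of 275 on chromosome 5 and 33.7% of 163 on chromosome 8. Chromosome 13 also held few Pol2S5p peaks of H1-10 OE, 640 (1.58%). Copy number of the chromosomes in this line was not tested.

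**Figure D5:**
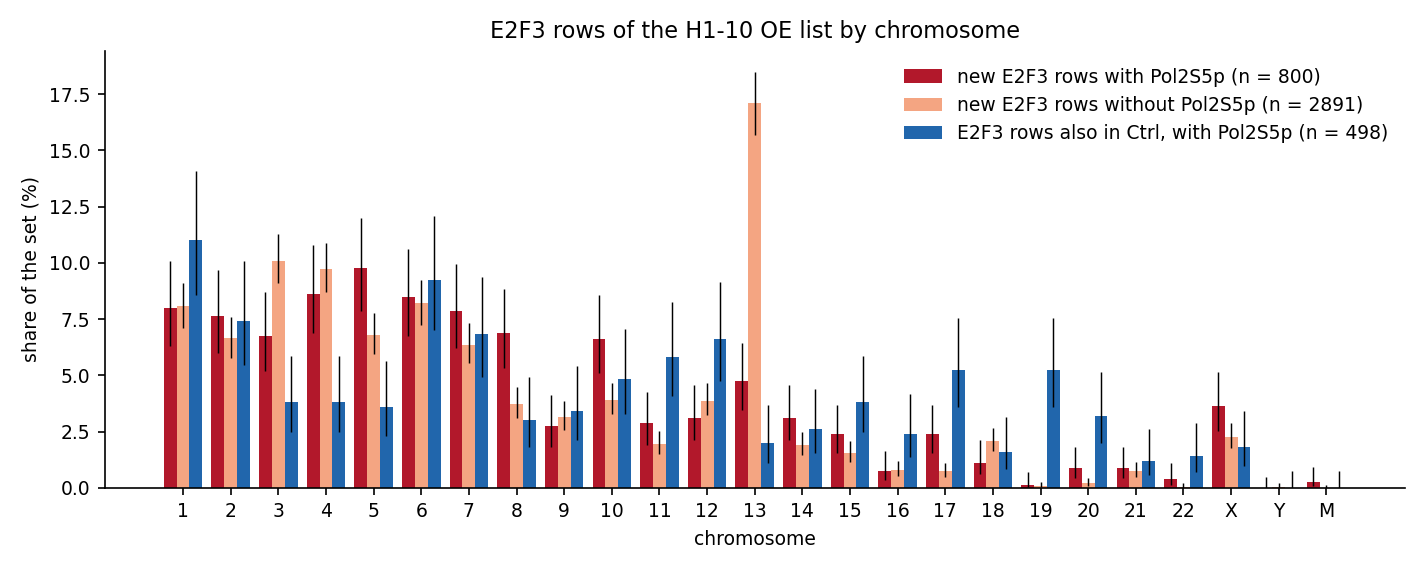
Share of each set of E2F3 peaks of H1-10 OE by chromosome; whiskers are 95% Wilson intervals. New sites without Pol2S5p stand out on chromosome 13 with 17.1%, against 4.75% of new sites with Pol2S5p, and new sites of both kinds are nearly missing from chromosome 19.

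The sites were dispersed, with some dense stretches. They fell into 499 windows of 1 Mb, of which 345 held 1 site and 16 held 5 or more. Joining sites within 50 kb gave 668 groups, of which 94 held 2 to 5 sites. The fullest window, from 37 to 38 Mb of chromosome 8, held 16 sites between 37000019 and 37561243. Their E2F3 folds ran up to 65.2. Of these 16, 11 had Pol2S5p in siE2F3, 11 in siCtrl and none in Ctrl. The window held 60 Pol2S5p peaks in H1-10 OE and 15 in Ctrl, and 94 in siE2F3 and 93 in siCtrl, and the siRNA lists are the longest of the Pol2S5p lists over the genome too.

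On chromosome 5 the stretch from 124 to 125 Mb had 11 sites, 3 of them with Pol2S5p in siE2F3, 7 in siCtrl and 1 in Ctrl. Its widest site, at 124744052 to 124747048, spanned 2997 bp, the longest of all 800, with an E2F3 fold of 34.8. On chromosome 7 the stretch from 80 to 81 Mb, with the leading site, had 9 sites and 31 new E2F3 peaks without Pol2S5p. Only the leading site of the 9 had Pol2S5p in siE2F3 or siCtrl, and the window held 10 Pol2S5p peaks in H1-10 OE and 4 in Ctrl, and 3 in siE2F3 and 2 in siCtrl. On chromosome 17 the stretch from 69 to 70 Mb also had 9 sites, with 8 Pol2S5p peaks in H1-10 OE and 0 in Ctrl, and 1 in siE2F3 and 1 in siCtrl. These windows differ in kind, since at the one of chromosome 8 most sites had Pol2S5p in the siRNA lists too, and at those of chromosomes 7 and 17 all but 1 of the sites of each lacked it.

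Surroundings of the new sites were poor in polymerase. Within 100 kb on each side of the summit, new sites had a median of 0 Pol2S5p peaks in Ctrl (interval 0 to 1) and 3 in H1-10 OE, the site's own included. Sites also in Ctrl had 8 (7 to 9) and 10, and new sites without Pol2S5p 0 and 1. The nearest Pol2S5p peak of Ctrl was a median of 109 kb away (92.5 to 131) for new sites with Pol2S5p and 144 kb (135 to 154) for those without. The nearest E2F3 peak of Ctrl was 73.3 kb away (65.0 to 83.9) for new sites with Pol2S5p and 81.0 kb (76.2 to 85.8) for those without. Both medians exclude the 2 sites on chromosome M, where the Ctrl lists held no peak.

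Few E2F3 peaks of H1-10 OE, the new sites among them, lay near H3K27me3, whose lists held 18395 peaks in H1-10 OE and 2540 in Ctrl. Within 5 kb, 1 of 800 sites had an H3K27me3 peak of H1-10 OE (0.125%, 0.0221 to 0.705%) and 1 had one of Ctrl. Over all E2F3 peaks of H1-10 OE the shares were 0.163% and 0.0698%, and over all Pol2S5p peaks of H1-10 OE 1.44% and 1.45%. Sites also in Ctrl had 3 and 1 of 498, and new sites minus sites also in Ctrl gave -0.477 points (-1.64 to 0.225) for H3K27me3 of H1-10 OE. The site near H3K27me3 of H1-10 OE was at 68390187 to 68390604 of chromosome 7, 3157 bp away. The one with H3K27me3 of Ctrl was at 46724022 to 46724346 of chromosome 17, which overlapped that peak and had Pol2S5p in H1-10 OE, siE2F3 and siCtrl.

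Sites at the limits of the choice are given with their E2F3 folds. The smallest overlaps with Pol2S5p were 9, 12 and 25 bp, at sites on chromosomes 6, X and 10 with E2F3 folds of 4.06, 4.90 and 5.07, and 5 sites overlapped by under 50 bp. Just outside, new E2F3 peaks on chromosomes 4, 5 and 17 lay 20, 36 and 43 bp from a Pol2S5p peak, with E2F3 folds of 4.13, 8.23 and 6.13, and 107 lay within 1 kb. The smallest gaps to an E2F3 peak of Ctrl were 42, 60 and 93 bp, at sites on chromosomes 7, 13 and 3 with folds of 12.0, 6.33 and 4.44, and 25 sites lay within 1 kb of one. Just outside on that side, peaks counted as also in Ctrl overlapped one by 21, 22 and 59 bp, on chromosomes 4, 5 and 6 with folds of 4.43, 7.90 and 6.97. Both sites of chromosome M, at 85 to 396 and 15846 to 16382, had low folds, 2.05 for E2F3 and 1.81 for Pol2S5p at the first and 2.71 and 1.60 at the second, with 2.05 the lowest E2F3 fold and 1.60 the lowest Pol2S5p fold of the 800.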

How the data were processed

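The deposited peak lists of 8 of the 22 samples were read, 1 library per group, grouped by sample title; the other 14 samples were not analysed here. The submitters' processing notes name Bowtie, fastp and FastQC, without roles, and the build hg19. No source used here gives the peak caller, its threshold or its input. The deposited lists, 1 per sample, hold for every peak the authors' score, a ratio read as fold enrichment over background, -log10 p and -log10 q values, and a summit offset; the score was not used. Depth is unknown, so list lengths could not be scaled.

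Peaks were paired by an overlap of at least 1 bp, and the Pol2S5p peak of longest overlap gave summit distances. Classes of Pol2S5p strength, in H1-10 OE or siCtrl, rank -log10 p over a whole list. The 10 classes of E2F3 significance rank it within the 3691 new peaks, and the 4 classes within the 800 sites. The comparison with peaks lacking E2F3 in either list, the 20 classes, equal list lengths, 1 site per 50 kb (planned for the share on chromosome 13 alone), leaving out chromosome M and a -log10 q of at least 5 in siCtrl with any siE2F3 peak were added after the data were seen. Named sites are the 10 of highest E2F3 significance, the 5 of highest Pol2S5p significance, the leading 3 of each pattern (not all are printed), the fullest windows and those at the rule's limits; sites on chromosome M or near H3K27me3, and the widest in a window, were named after their values were seen. The sites and lists were chosen with earlier results of these data known. Planned gene lists need an hg19 annotation and were not counted. Overlap code was tested on simulated and deposited lists and differed from bedtools 2.31.1 in 0 rows. Scripts ran under Python 3.11.15 with matplotlib 3.10.9, scipy 1.17.1, pandas 2.3.3 and numpy 2.4.6.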

Additional observations from a re-analysis of the deposited data

How the results depend on the processing

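Over 9 results, 31 of 43 settings left the value within its 95% interval (the number of sites within 1.5 times) and 12 moved it. The comparisons with other peak sets were not repeated under these settings. A -log10 q of at least 5 was asked of every list used except E2F3 of Ctrl, which was kept whole. It lowered the number of new sites to 473 and moved the share in siE2F3 to 15.0% and in Ctrl to 2.33%. It also raised the share of siCtrl sites absent from siE2F3 to 56.8% and gave a median summit distance of 64 bp. Requiring the E2F3 summit inside the peak gave 14.8% in siE2F3, and requiring 50% of the E2F3 peak to be covered gave 13.2% in siE2F3 and 23.5% in siCtrl. With the strongest 35493 peaks of each list, 12.1% of the sites were in siE2F3 and 20.6% in siCtrl. An overlap of 1 bp or a distance of 1 kb gave 0 sites at H3K27me3 of H1-10 OE. Other rules for overlap gave 586 to 906 new sites. No paired analysis was possible because each group was 1 library and the labels give no replicate numbers, and for the same reason no replicate could be left out. A stricter threshold or overlap leaves fewer peaks by construction; other causes of these moves were not tested.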
